A study of Arabidopsis thaliana with 24 samples.

Results

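The genes described here are 10 Arabidopsis loci that encode enzymes of flavonoid and anthocyanin synthesis, listed by locus for their place in the pathway. The list was made with earlier results of these data known, so its counts of calls are descriptions and not independent evidence. They are 10 of the 30174 loci measured, and each has 1 of the 30386 gene features on the array. Flavonoids are built from a phenylpropanoid acid and malonyl units in a chain of enzyme steps. The early steps lead to dihydroflavonols, from which flavonol synthase makes colourless flavonols, which absorb ultraviolet light. The late steps turn dihydroflavonols into red and purple anthocyanins, which seedlings store in vacuoles, often when sugar is plentiful and light is strong. In Arabidopsis, flavonol MYB factors switch on the early genes, and complexes of MYB, bHLH and WD40 proteins switch on the late genes.

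Wild-type seedlings (Col-0) were kept in shaken liquid medium under constant light, and the sample labels give their age as 7 days, whereas the published methods give a longer culture. The 4 treatments were sucrose in light, the control in light, sucrose in darkness, and the control in darkness, with sucrose given by a change of medium. In the controls sorbitol, a sugar alcohol, replaced sucrose at the same molarity, so that each group had an added osmolyte, and darkness was applied by covering flasks of light-grown seedlings. Total RNA, which gives the steady-state mRNA level, and RNA of the small polysome fraction, which gives the polysomal mRNA level, were hybridised to AGRONOMICS1 arrays, with 3 arrays per group from cultures numbered 7, 8 and 9, or 24 arrays in all.

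All values are log2 values made with RMA, a method that corrects background, normalises arrays and summarises the probes of a gene, so that 1 unit is a 2-fold difference. Array medians lay between 5.92 and 6.06. A change had to exceed 2-fold and have an adjusted p below 0.05 to be called, with limma and Benjamini-Hochberg adjustment over all 30386 features. For differences between 2 changes and for polysomal occupancy, the adjusted p alone decided. With whole seedlings, fewer cells of a type and less RNA per cell cannot be told apart. Levels are compared between treatments of a gene and not between genes.

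The early steps are represented by CHS (AT5G13930, chalcone synthase, the entry enzyme), CHI (AT3G55120, chalcone isomerase), F3H (AT3G51240, flavanone 3-hydroxylase), F3'H (AT5G07990, which hydroxylates the B ring) and FLS1 (AT5G08640, flavonol synthase). The late steps are represented by DFR (AT5G42800, dihydroflavonol reductase), LDOX (AT4G22880, anthocyanidin synthase), UF3GT (AT5G54060, which adds xylose to the sugar of anthocyanins), 5GT (AT4G14090, which adds glucose to anthocyanins) and TT19 (AT5G17220, a glutathione transferase that carries anthocyanins towards the vacuole). Feature identifiers give a span for 7 of these, without naming the genome build. CHS lies on the plus strand of chromosome 5 at 4488688 to 4490264, F3'H on the plus strand at 2560394 to 2563109, and TT19 on the plus strand at 5658460 to 5659386. DFR lies on the minus strand of the same chromosome at 17164141 to 17165918 and UF3GT at 21936879 to 21938369. CHI lies on the minus strand of chromosome 3 at 20430114 to 20431470, and 5GT on the minus strand of chromosome 4 at 8122188 to 8123835.

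One property of the cultures bears on every comparison of these genes. Among the 3 light sucrose arrays of total RNA, replicate 8 was the highest for 10 of 10 genes and replicate 9 the lowest for 9. Over all features, replicate 8 was highest in 29.8% and replicate 9 lowest in 35.8%. In the polysomal arrays of light sucrose, replicate 8 was again highest and replicate 9 lowest for 10 of 10 genes, against 33.8% and 41.5% of all features. Under sucrose in darkness, replicate 9 was lowest for 9 of 10 genes in both kinds of RNA, against 36.2% and 42.2% of all features. In the light controls it was lowest for 8 genes in total and 10 in polysomal RNA (35.0% and 37.2% of all features). In the dark controls it was lowest for 6 and 9 (39.1% and 38.6%). Residual SDs over all features were 0.220 to 0.271 for arrays of replicate 9, 0.167 to 0.222 for replicate 7 and 0.188 to 0.218 for replicate 8. Results are therefore given below also without single replicates and with the replicate number as a block, where the numbers pair the arrays of a comparison and a call depends on it.

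**Figure D1:**
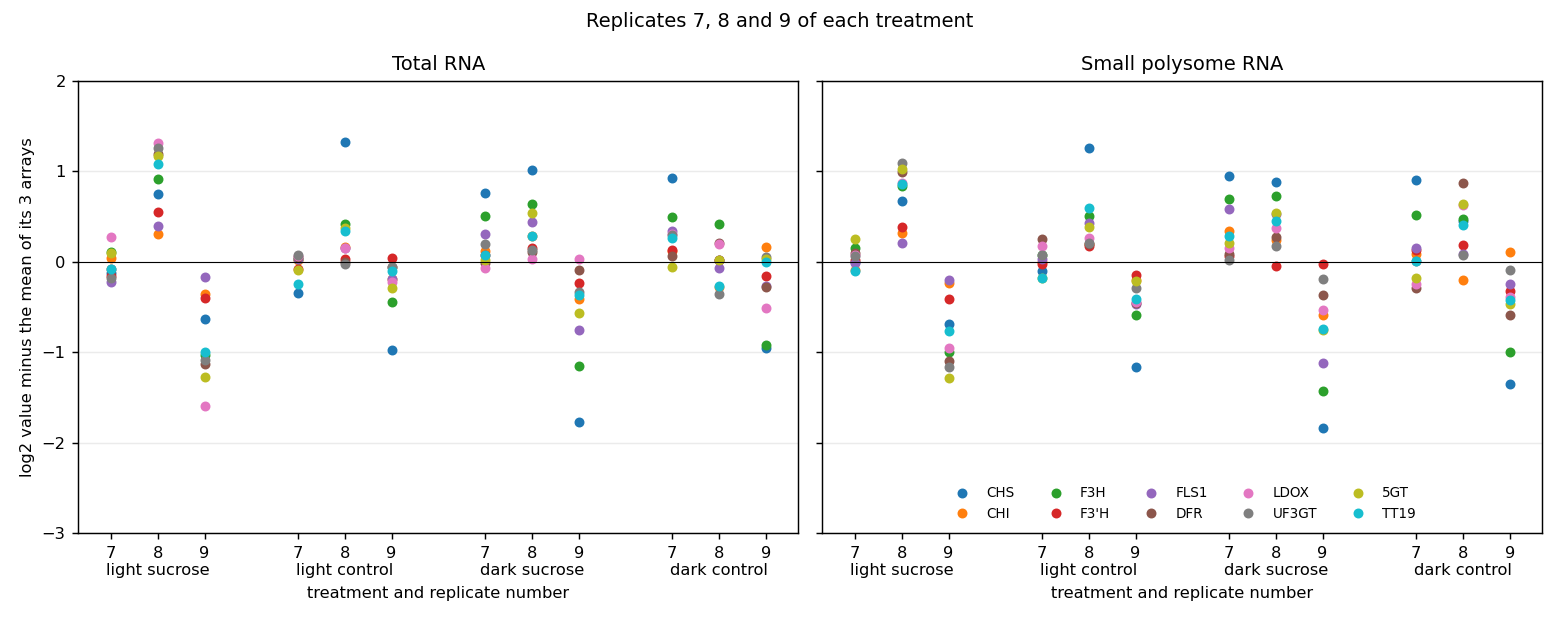
Each point is 1 gene on 1 array, as its log2 value minus the mean of the 3 arrays of its group (vertical axis), for replicates 7, 8 and 9 of each treatment (horizontal axis), with total RNA on the left and small polysome RNA on the right. In light sucrose all 10 genes lie highest in replicate 8, and CHS shows deviations beyond 1 log2 unit in light control and dark sucrose as well.

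Sucrose in light raised the steady-state mRNA of 9 of the 10 genes more than 2-fold, 5 of 5 late genes among them, and none fell. Of all features, 3.73% were called up and 4.63% down in this comparison. The median change of the 10 genes was 2.68 log2 units, against 0.02 over all features. The groups did not overlap for the 9 genes, a pattern that 21.5% of all features showed in this direction.

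DFR commits dihydroflavonols to anthocyanins. It had log2 values of 8.47, 9.74 and 7.42 in the light sucrose cultures 7, 8 and 9, against 4.27, 4.22 and 4.17 in the light controls. The lowest sucrose value thus lay more than 3 units above the highest control value, and DFR rose by 4.32 ± 0.48 (SE, adjusted p = 9.04e-07 with limma). The control values lay in the range of the lower quartiles of single arrays (4.05 to 4.43), so the rise is given without a fold. LDOX, which makes the coloured anthocyanidins, had 8.21, 9.26 and 6.34 with sucrose in light and 3.96, 4.04 and 3.67 in the light controls. It rose by 4.05 ± 0.52 (adjusted p = 5.06e-06), with the widest spread between light sucrose cultures of the 10 genes in total RNA (SD 1.48, n = 3).

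The genes that attach sugars to anthocyanins and carry them rose as well. 5GT had 9.74, 10.82 and 8.37 with sucrose in light, against 5.92, 6.39 and 5.72 in the light controls, a rise of 3.64 ± 0.54 (adjusted p = 2.62e-05). UF3GT had 7.62, 9.06 and 6.71 with sucrose in light, against 5.36, 5.27 and 5.23 in the light controls, a rise of 2.51 ± 0.45 (adjusted p = 2.24e-04). For both, culture 9 was the lowest with sucrose and still clear of every control culture. TT19 had 8.59, 9.76 and 7.68 with sucrose in light, against 5.25, 5.83 and 5.38 in the light controls, a rise of 3.19 ± 0.45 (adjusted p = 1.42e-05).

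Among the early genes, CHS had 10.87, 11.74 and 10.36 with sucrose in light, against 7.81, 9.47 and 7.17 in the light controls. The groups did not overlap, although the control cultures differed by more than 2 units among themselves, and CHS rose by 2.84 ± 0.87 (adjusted p = 0.017). F3H, whose product feeds both branches, had 10.27, 11.09 and 9.14 with sucrose in light, against 8.19, 8.58 and 7.72 in the light controls, a rise of 2.0 ± 0.65 (adjusted p = 0.025). The calls of CHS and F3H were both lost without replicate 7 and without replicate 8 (highest adjusted p 0.18 and 0.22), whereas with the replicate block their adjusted p was 4.15e-05 and 2.43e-06.

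FLS1 was more even between cultures, with 8.61, 9.23 and 8.66 with sucrose in light, against 6.53, 6.65 and 6.30 in the light controls, and rose by 2.34 ± 0.36 (adjusted p = 4.58e-05). CHI had 9.37, 9.64 and 8.97 with sucrose in light, against 8.17, 8.31 and 7.96 in the light controls, a rise of 1.18 ± 0.23 (adjusted p = 5.55e-04). F3'H was the 1 gene without a call. Its values of 7.01, 7.71 and 6.76 with sucrose in light overlapped those of 6.78, 6.88 and 6.90 in the light controls, with a difference of 0.31 (95% interval -0.12 to 0.74, adjusted p = 0.32).

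**Figure D2:**
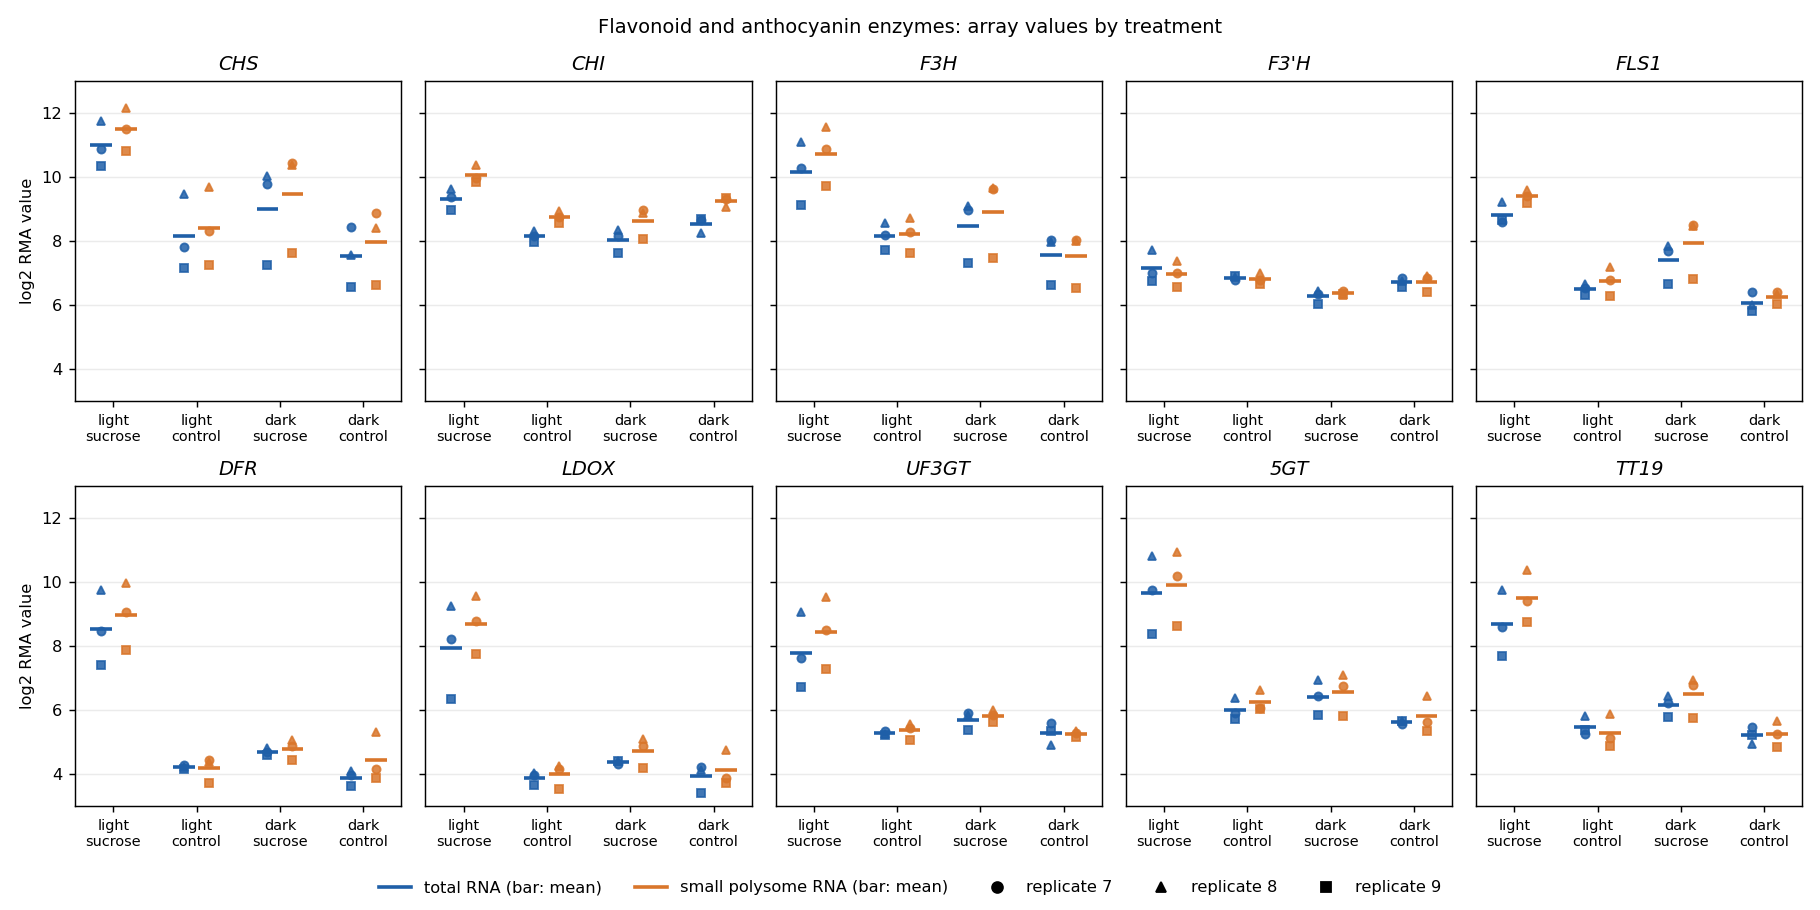
Each panel is 1 gene, with the early steps in the upper row and the late steps in the lower row. The vertical axis is the log2 RMA value on the array, the horizontal axis the 4 treatments, points are single cultures and bars the means of 3. DFR and LDOX lie between 6.34 and 9.97 with sucrose in light and at or below 5.32 in every other treatment.

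Polysomal mRNA showed the same 9 genes called up in light, where 4.79% of all features were called up, and again F3'H was not called (0.17, adjusted p = 0.65). DFR had 9.08, 9.97 and 7.88 in polysomes with sucrose in light, against 4.44, 4.38 and 3.73 in the light controls, a rise of 4.79 ± 0.48 (adjusted p = 2.47e-07). The other late genes rose by 4.71 for LDOX, 4.20 for TT19, 3.68 for 5GT and 3.07 for UF3GT. Of the early genes, CHS rose by 3.08, FLS1 by 2.65, F3H by 2.51 and CHI by 1.31. The F3H call was lost without replicate 7 and without replicate 8, and the CHS call without replicate 7.

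Sucrose in darkness gave far fewer calls. In total RNA only FLS1 was called, where 5.47% of all features were called up and 5.62% down. FLS1 had 7.71, 7.84 and 6.65 with sucrose in darkness, against 6.41, 6.0 and 5.81 in the dark controls, a rise of 1.33 ± 0.36 (adjusted p = 0.0075). The groups did not overlap, but culture 9 with sucrose lay close to the highest control, and the call was lost without replicate 7 and without replicate 8 (highest adjusted p 0.14). In polysomal RNA, where 5.48% of all features were called up, FLS1 rose by 1.66 ± 0.36 (adjusted p = 0.0012) and TT19 by 1.23 ± 0.45 (adjusted p = 0.042). The FLS1 call in polysomes was lost without replicate 7 and without replicate 8, and the TT19 call without replicate 7 and with quantile normalisation (highest adjusted p 0.35).

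CHS varied more between the dark cultures than any other of the genes. It had 9.77, 10.03 and 7.24 with sucrose in darkness, against 8.46, 7.55 and 6.58 in the dark controls, so the groups overlapped although each culture was above the control of its own number. The difference of 1.49 (95% interval -0.33 to 3.30) was not called (adjusted p = 0.22). F3H showed the same picture, with 8.98, 9.10 and 7.32 with sucrose in darkness, against 8.05, 7.98 and 6.65 in the dark controls, a difference of 0.91 (adjusted p = 0.34). Since arrays of the same number deviated together, the fit with the replicate number as a block applies here. With it, CHS was called as well (adjusted p = 0.011 in total and 0.01 in polysomal RNA), and F3H in polysomal RNA (adjusted p = 1.1e-04). The counts then were 2 genes in total and 4 in polysomal RNA, where the block called 5.59% and 5.6% of all features up.

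The late genes stayed low with sucrose in darkness. DFR had 4.69, 4.81 and 4.61 with sucrose in darkness, against 3.96, 4.10 and 3.62 in the dark controls. These groups did not overlap, but the difference of 0.81 (95% interval -0.20 to 1.82) was not called (adjusted p = 0.24), and the corresponding intervals for LDOX, UF3GT and 5GT also contained 0. TT19 had a difference of 0.94 (95% interval 0.01 to 1.88, adjusted p = 0.12) without a call. In total RNA, 5 of the 10 genes had all 3 sucrose values above and 1, F3'H, all 3 below the dark controls, against 19.7% and 20.6% of all features. CHI was the other gene with a mean below its dark control, by 0.49 in total (adjusted p = 0.13) and 0.61 in polysomal RNA (adjusted p = 0.054), without a call.

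**Figure D3:**
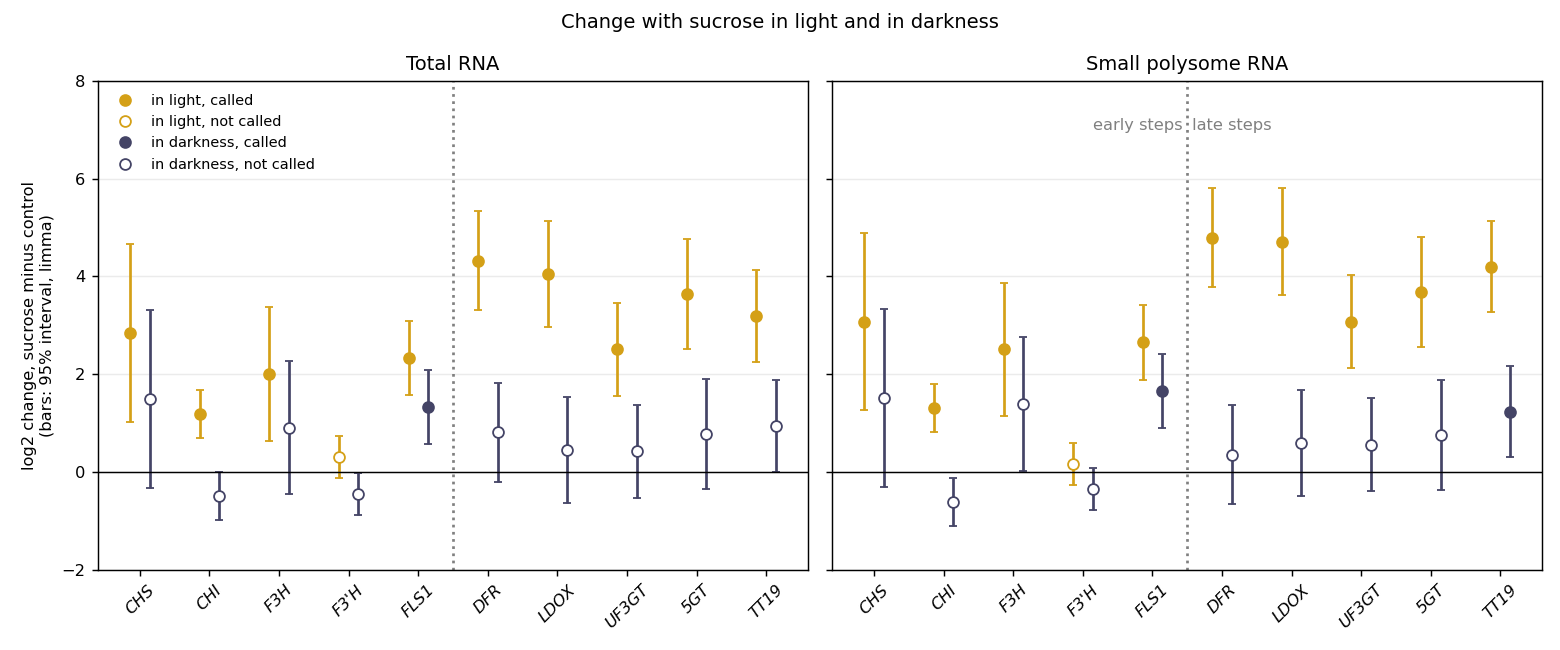
Points are log2 changes, sucrose minus control, of the 10 genes (horizontal axis, early steps left and late steps right of the dotted line) in light and in darkness, with bars for the 95% interval from limma; filled points were called. In light 9 of 10 points are filled in each panel, while in darkness FLS1 alone is filled in total RNA and FLS1 and TT19 in small polysome RNA.

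Whether the sucrose change itself differed between light and darkness was tested as an interaction. In total RNA 6 genes had a larger change in light, where 4.09% of all features were called in this direction. They were LDOX (3.60, adjusted p = 0.0039), DFR (3.51, adjusted p = 0.0026), 5GT (2.86, adjusted p = 0.022), TT19 (2.25, adjusted p = 0.031), UF3GT (2.09, adjusted p = 0.047, not called with the compared arrays alone) and CHI (1.67, adjusted p = 0.0030). In polysomal RNA the same 6 genes were called, against 6.33% of all features. These calls cover 5 of 5 late genes and 1 of 5 early genes. The estimate was above 0 for 10 of 10 genes in both kinds of RNA, and lay between 0.76 and 1.67 for the early genes in total RNA. The difference between early and late genes was not tested.

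CHI differs from the late genes in its values, since its change was a rise of 1.18 in light and a difference of -0.49 in darkness. For CHS, F3H and FLS1 the light minus dark differences were 1.35 (95% interval -1.22 to 3.93), 1.1 (-0.83 to 3.03) and 1.01 (-0.06 to 2.09), wide enough to hold a difference as large as that of TT19 for CHS and F3H. With the replicate block, F3H (adjusted p = 0.035) and F3'H (adjusted p = 0.025) were called too, for 8 genes in total RNA, 3 of 5 early genes among them, and F3H (adjusted p = 0.028) for 7 in polysomal RNA. Over all features, the block called 7.3% in total and 9.99% in polysomal RNA in this direction. The interaction depended on single replicates more than any other comparison. Without replicate 7 it gave 0 calls in either RNA, without replicate 8 it gave 2 in total and 4 in polysomal RNA, and without replicate 9 it gave 8 and 6. The share of all features called in this direction was 0.227% in total and 0.441% in polysomal RNA without replicate 7, 0.237% and 0.434% without replicate 8, and 7.99% and 8.23% without replicate 9.

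Darkness without sucrose left the 10 genes without a call. Between dark and light controls 0 genes were called in total RNA and 0 in polysomal RNA, against 1.49% and 1.38% of all features. With limma, an unadjusted p under 0.05 was found for 0 and 1 of the 10, against 6970 and 7162 of all 30386 features. The differences lay between -0.62 for CHS and 0.39 for CHI in total RNA, with a median of -0.30. DFR and 5GT had all 3 dark control values below the light controls in total RNA, with differences of -0.33 (95% interval -1.34 to 0.68) and -0.38 (95% interval -1.50 to 0.75). This pattern of 2 of 10 genes was shown by 11.9% of all features. In polysomal RNA, CHI alone had all 3 dark control values above the light controls, by 0.49 (95% interval 0.0007 to 0.98, adjusted p = 0.21), against 16.6% of all features. In polysomes, culture 8 of the dark control had 5.32 for DFR beside 4.16 and 3.87 in cultures 7 and 9, and 4.74 for LDOX beside 3.88 and 3.73.

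Darkness in the presence of sucrose was compared with light sucrose directly. This comparison shares the light sucrose arrays with the comparison of sucrose in light, so the 2 are not independent. In total RNA 7 genes were lower in dark sucrose, where 3.29% of all features were called down and 4.77% up. DFR was lower by 3.84 units in dark sucrose (change -3.84, adjusted p = 6.10e-06), LDOX by 3.56 (change -3.56, adjusted p = 3.23e-05) and 5GT by 3.24 (change -3.24, adjusted p = 1.26e-04). TT19 had a change of -2.52, UF3GT of -2.09, FLS1 of -1.43 and CHI of -1.28, all called. The UF3GT call was lost without replicate 7 and the FLS1 call without replicate 8.

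F3'H, which had no call for sucrose in light, was lower in dark sucrose than in light sucrose. It had 6.35, 6.43 and 6.04 in dark sucrose, against 7.01, 7.71 and 6.76 in light sucrose, without overlap. The change of -0.89 (adjusted p = 0.0028) stayed under 2-fold. CHS had a change of -1.98 (adjusted p = 0.10) and F3H of -1.70 (adjusted p = 0.06) without a call in the fit without a block. With the replicate number as a block, CHS and F3H were both called. F3H was also called with the culture as a random block (adjusted p = 0.025), without dim features (0.046), with quantile normalisation (0.0496) and without replicate 9 (7.0e-04). For 10 of 10 genes all 3 dark sucrose values lay below all light sucrose values, which held for 19.9% of all features.

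In polysomal RNA 8 genes were lower in dark sucrose than in light sucrose, where 3.45% of all features were called down. DFR had 4.89, 5.08 and 4.44 in dark sucrose, against 9.08, 9.97 and 7.88 in light sucrose, a change of -4.18 (adjusted p = 2.03e-06). LDOX followed with -3.99, 5GT with -3.36, TT19 with -3.01 and UF3GT with -2.62. F3H was called here (-1.80, adjusted p = 0.044), though not without replicate 7, without replicate 8 or with the arrays of these groups alone, and CHS was not (-2.01, adjusted p = 0.096) except with the replicate block (adjusted p = 0.0012) and with a random effect of the culture.

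Across the 4 treatments, light sucrose had the highest mean for 10 of 10 genes in both kinds of RNA. Dark sucrose was second for 8 in each, CHI and F3'H being the exceptions, and the dark control was lowest for 7 in total and 6 in polysomal RNA. For DFR the total RNA means were 8.54 ± 1.16 in light sucrose, 4.22 ± 0.05 in light control, 4.70 ± 0.10 in dark sucrose and 3.89 ± 0.25 in dark control (SD, n = 3). For CHS they were 10.99 ± 0.70, 8.15 ± 1.19, 9.01 ± 1.54 and 7.53 ± 0.94 in the same order, and the lower 3 of these did not differ beyond their spread in the fit without a block. For FLS1 they were 8.83 ± 0.34, 6.49 ± 0.18, 7.40 ± 0.65 and 6.07 ± 0.31. The lower quartile of single arrays was 4.05 to 4.43, and the total RNA means of DFR and LDOX outside light sucrose, 3.89 to 4.70, lay in or near that range. The deposited values carry no detection call, and whether these genes were above background there is not known.

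Polysomal occupancy, the polysomal minus the total value of a culture, compares the small polysome level of an mRNA with its steady-state level. It is a relative measure, since arrays were normalised, and it does not cover large polysomes. In the fit of 8 group means, sucrose in light gave 0 calls among the 10 genes (0.359% of all features), sucrose in darkness 0 (0%) and darkness without sucrose 0 (0%). For sucrose in light, the share of all features called was 2.19% with a random effect of the culture and 0% without replicate 7 or without replicate 8. With limma, 0 of the 10 genes had an unadjusted p under 0.05 in any of the 3 comparisons, against 1999, 1325 and 1276 of all features. This fit treats both arrays of a culture as independent, although they deviated together, so limma was also fitted to the occupancies of the 12 cultures, an alternative chosen after the data were seen. That fit again called 0 of the 10 genes in each of the 3 comparisons (1.03%, 0.0132% and 0% of all features), with unadjusted p under 0.05 for 3, 1 and 0 of the genes, against 13.7%, 9.91% and 9.26% of all features.

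The occupancies of 5 genes lay higher in all 3 light sucrose cultures than in all light controls, namely those of F3H, DFR, LDOX, UF3GT and TT19, a pattern that 11.6% of all features showed. TT19 had the largest difference of the 10 genes, with occupancies of 0.80, 0.61 and 1.06 in light sucrose, against -0.13, 0.06 and -0.49 in light control. The difference was 1.01, with a 95% interval of -0.31 to 2.34 in the fit of group means (adjusted p = 0.97) and of 0.40 to 1.63 in the fit to occupancies (adjusted p = 0.12). F3H had 0.60, 0.48 and 0.59 in light sucrose, against 0.10, 0.13 and -0.09 in light control, a difference of 0.51 (95% interval 0.23 to 0.79 in the fit to occupancies, adjusted p = 0.091). The replicates of F3H were thus close together, and in darkness its difference was 0.49 (adjusted p = 0.21 in the same fit). The median occupancy of the 10 genes was 0.56 in light sucrose, 0.09 in light control, 0.34 in dark sucrose and 0.18 in dark control. Averaged over the 4 treatments, CHI had a higher value in polysomal than in total RNA (0.66 ± 0.12, adjusted p = 1.2e-04), a call that 25.7% of all features had. With the replicate block FLS1 was called too (0.39, adjusted p = 0.014), where 29.1% of all features were called in this direction. In the fit to occupancies 9 of the 10 genes, all but F3'H, were called higher in polysomal RNA, by 0.20 to 0.66, where 32.6% of all features were called in this direction.

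The late genes varied together. Over the 24 arrays, the 10 pairs of late genes had Pearson correlations from 0.97 to 0.99, the 10 pairs of early genes from 0.34 to 0.97, and the 25 pairs of an early with a late gene from 0.52 to 0.94. These arrays share treatments, cultures and replicate numbers, so the correlations are descriptions. Against the mean profile of the other 9 genes, 5GT had the highest correlation (0.98) and F3'H the lowest (0.58), with CHI at 0.76. Outside the 10 loci, only features with a mean above the median of all features were searched for a like profile, so dimmer ones were not compared. Those most like the mean profile of the 10 genes were TBL26 (0.966), SAHH2 (0.964, an enzyme of methyl group metabolism), UGT78D1 (0.962, a flavonol rhamnosyltransferase), APL4 (0.962, a subunit of an enzyme of starch synthesis), AT3G27400 (0.960), GATA7 (0.960), CEV1 (0.960, a cellulose synthase subunit) and IPMI1 (0.959). TBL26 rose by 2.71 in light (adjusted p = 6.38e-06) and differed by 0.77 in darkness (adjusted p = 0.11), and SAHH2 rose by 2.55 and 1.09 (adjusted p = 1.1e-05 and 0.022).

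Enzymes that decorate flavonoids, beyond the 10 genes, were the other list with the most calls in light. The list also holds CHIL, a chalcone isomerase-like protein of the early steps, which is not a decorating enzyme. In total RNA 9 of 12 measured members of this list rose with sucrose in light and none fell (median 1.68), or 8 of 11 without CHIL. Of all features, 3.73% were called up and 4.63% down there. The largest rises were in A3AT2 (2.94, adjusted p = 1.8e-05), an acyltransferase of anthocyanins, UGT89C1 (2.07), a flavonol rhamnosyltransferase, and RHM1 (2.04), which supplies rhamnose. In darkness, where 5.47% of all features were called up, 3 of the 12 rose, RHM1 by 1.66, UGT89C1 by 1.3 and UGT73C6, a flavonol glucosyltransferase, by 4.40 (adjusted p = 7.0e-09). Unlike the late genes, UGT73C6 was higher in dark than in light sucrose. It averaged 10.02 ± 0.74 in dark sucrose and 5.61 ± 0.21 in dark control, and 7.05 ± 0.40 in light sucrose and 5.85 ± 0.39 in light control (SD, n = 3). Its sucrose change was smaller in light than in darkness by 3.20 (light minus dark difference -3.20, adjusted p = 3.5e-04), as was that of BGLU10, a glucosyltransferase of anthocyanins (-1.16, adjusted p = 0.011), whereas that of A3AT2 was larger (2.16, adjusted p = 0.027). Between dark and light sucrose, 7 of the 12 were lower in dark sucrose, A3AT2 (-2.47), SCPL10 (-2.16) and CHIL (-1.87) furthest, and UGT73C6 was higher (2.97), or 6 of 11 lower without CHIL. Of all features, 3.29% were called down and 4.77% up in this comparison. SCPL10 averaged 3.26 in light control, 2.68 in dark control and 3.11 in dark sucrose. These means lay below the lower quartiles of single arrays (4.05 to 4.43).

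**Figure D4:**
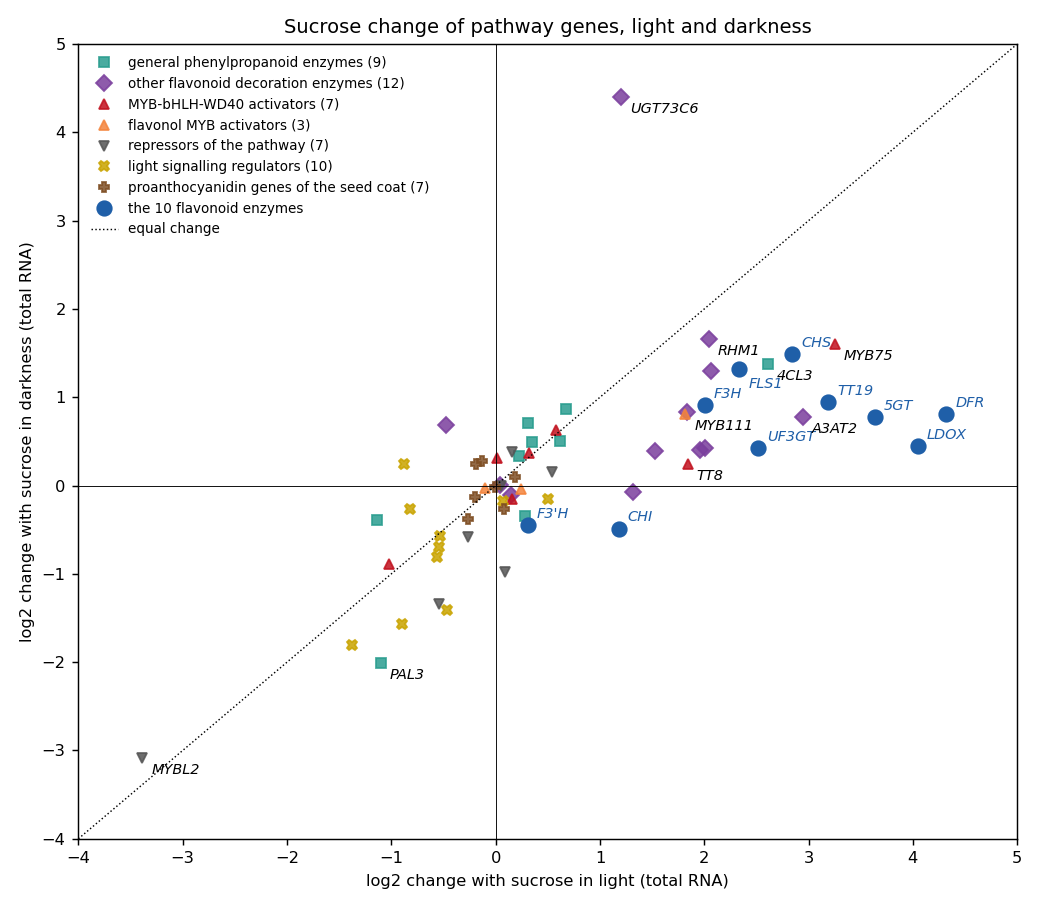
Each point is 1 gene, with its log2 change in total RNA with sucrose in light on the horizontal and in darkness on the vertical axis; symbols mark the gene lists, with the number measured, and the dotted line marks equal changes. DFR and LDOX lie far to the right at 4.32 and 4.05 in light with under 1 in darkness, UGT73C6 lies above the line, and MYBL2 lies at the lower left near the line.

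Regulators moved in both directions. Of the 7 measured genes of the MYB, bHLH and WD40 complex, 2 rose and 1 fell with sucrose in light in total RNA. Of all features, 3.73% were called up and 4.63% down. MYB75, the MYB factor of anthocyanin genes also called PAP1, rose by 3.25 ± 0.59 (adjusted p = 2.2e-04) and the bHLH factor TT8 by 1.84 ± 0.31 (adjusted p = 1.1e-04), while the WD40 protein TTG1 fell by 1.03 (change -1.03, adjusted p = 7.8e-07). In darkness MYB75 alone was called, with a rise of 1.61 ± 0.59 (adjusted p = 0.042), where 5.47% of all features were called up and 5.62% down. MYB75 averaged 7.94 ± 0.90 in light sucrose and 4.69 ± 0.24 in light control, and 5.89 ± 0.77 in dark sucrose and 4.28 ± 0.20 in dark control (SD, n = 3). The sucrose change of TT8 was larger in light than in darkness by 1.60 (adjusted p = 0.027). For MYB75 the light minus dark difference was not called (1.64, adjusted p = 0.26), nor was that of TTG1 (-0.13, adjusted p = 0.70). TTG1 averaged 9.26 in dark control and 8.37 in dark sucrose, so it was lower with sucrose in darkness too, without a call. In polysomal RNA its change with sucrose in light (-0.76) stayed under 2-fold. Between dark and light sucrose, MYB75 (-2.05) and TT8 (-1.45) were lower in dark sucrose, where 3.29% of all features were called down. MYB111, an activator of early flavonol genes, rose by 1.82 in light (adjusted p = 4.4e-04), was not called in darkness in total RNA (0.81, adjusted p = 0.089) and was lower in dark than in light sucrose (-1.01, adjusted p = 0.037), whereas the other 2 flavonol MYB genes had no call in these 3 comparisons. The light minus dark difference of MYB111 was not called (1.01, adjusted p = 0.24), and in polysomal RNA it rose with sucrose in darkness as well (1.48, adjusted p = 0.0025).

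Of 7 repressors of the pathway, MYBL2, a MYB protein that opposes the activator complex, fell with sucrose both in light (change -3.39, adjusted p = 2.9e-06) and in darkness (change -3.08, adjusted p = 6.6e-06). Of all features in total RNA, 4.63% were called down with sucrose in light, 5.62% in darkness and 3.29% in dark against light sucrose. LBD38, a nitrogen-responsive repressor, fell in darkness (change -1.34, adjusted p = 1.7e-07), and LBD39 was lower in dark than in light sucrose (-1.02). Their light minus dark differences were 0.80 (adjusted p = 0.012) and 1.07 (adjusted p = 0.015). Among 10 light signalling genes, RUP1, which damps ultraviolet-B signalling, fell in light (change -1.38) and in darkness (change -1.81), and PIF4 (-1.57) and PIF5 (-1.41), growth factors that interact with phytochrome, fell in darkness. HYH, a bZIP factor of light responses, was higher in dark than in light sucrose (1.60, adjusted p = 1.4e-05, light minus dark difference of its sucrose change -1.12), and PIF4 was lower (-1.11).

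Enzymes upstream and beside the pathway had calls in both directions. In total RNA, 3.73% of all features were called up and 4.63% down with sucrose in light, and 5.47% and 5.62% in darkness. Of 9 general phenylpropanoid genes, 4CL3, which supplies activated acids to flavonoid synthesis, rose by 2.61 in light (adjusted p = 1.2e-04) and 1.38 in darkness (adjusted p = 0.021), PAL4 fell in light (change -1.14) and PAL3 fell in both (changes -1.1 and -2.01). 4CL3 (-1.74) and PAL3 (-1.32) were also lower in dark than in light sucrose, and PAL3 had a light minus dark difference of 0.91 (adjusted p = 0.046). Of 10 genes of monolignol and sinapate synthesis, SNG1, which makes sinapoylmalate, fell in light (change -3.36) and in darkness (change -3.05), UGT84A2, which makes sinapoylglucose, rose in both (1.64 and 1.58), and F5H was lower in dark than in light sucrose (-1.05). The 5 FLS1 paralogs had changes of -0.56 to 0.24 with sucrose in light and -0.43 to 0.14 in darkness, and 7 proanthocyanidin genes of the seed coat -0.27 to 0.18 and -0.38 to 0.28, all without a call in total RNA.

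Markers of tissues were followed beside these genes. In total RNA, 2 of 4 leaf cell genes fell with sucrose in light, LHCB1.3 (change -1.43) and RBCS1A (change -1.03), both of photosynthesis. Of all features, 4.63% were called down there. On single total RNA arrays the mean of the 4 was 7.77 to 8.32 in light sucrose and 8.71 to 9.14 in light control. In polysomal RNA none of the 4 was called. The changes there were -0.13 for LHCB1.3 (adjusted p = 0.82), -0.23 for RBCS1A (adjusted p = 0.36) and -0.72 for RCA (adjusted p = 0.011, under 2-fold). The means of the 4 on single polysomal arrays overlapped between light sucrose and light control. LHCB1.1 stayed below the lower quartile in each group. The 4 root, 4 epidermis and 4 seed storage genes had no call for sucrose in either condition in total RNA (changes of -0.37 to 0.58 in light for root, -0.30 to 0.28 for epidermis). The mean of the 4 epidermis genes was 10.76 in light sucrose, 10.81 in light control, 10.05 in dark sucrose and 10.42 in dark control, and 1 of them, PDF1, was lower in dark than in light sucrose (-1.42, adjusted p = 0.0022), together with the late genes, and lower in dark than in light control (-1.36). Small light minus dark differences were called for ATML1 (0.50, adjusted p = 0.048) and FDH (0.47, adjusted p = 0.044), both of the epidermis. The part of these markers in the results was not tested.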

How the data were processed

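Total RNA and small polysome RNA of 12 seedling cultures, 3 per treatment, were analysed on 24 arrays. Per the labels, the authors ran RMA on the arrays and deposited log2 values. In RMA, background correction and normalization can compress differences of dim features. No replicates were averaged. The labels also name limma, without versions. The values were used as deposited, after 371 control rows were left out, without a filter on low values. None was missing. Names of 29586 of 30174 loci were found in a RefSeq table of assembly TAIR10.1, used for names only.

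R 4.3.3 with limma 3.58.1 fitted 8 group means to the 24 arrays, moderating the variances with a prior of 3.57 degrees of freedom. Every adjusted p is from limma with Benjamini-Hochberg adjustment within a comparison. Figures were drawn with Python 3.11.15 and matplotlib 3.10.9. The fit was tested on simulated data with independent noise on each array, so the deviations that arrays of a culture share were not covered.

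The 10 loci and the gene lists were chosen with earlier results of these data known, so no list is independent evidence. Each of the 10 loci is named, from other lists up to 3 genes with the largest called change per total RNA comparison (others were chosen after their values were seen), and the 8 features most correlated with the mean profile of the 10. These 8 were sought only among features whose mean was above the median of all features.

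Same-numbered arrays deviated together in each sucrose comparison (correlations 0.109 to 0.387), so replicate numbers pair the cultures there. Correlations were positive in dark against light sucrose as well (0.0689 to 0.305 in total and 0.100 to 0.226 in polysomal RNA). In the dark control comparison of total RNA the lowest was 0.0147 and the highest 0.296. Alternatives were the replicate number as a block, the culture as a random block, only the arrays compared, a robust prior with an intensity trend, features below the lower quartile of means left out, quantile normalization, the fold requirement, each replicate left out and, added after the data were seen, limma on polysomal minus total values of each culture. P-values of the main fit rest on the spread between arrays of the same group, pooled over total and polysomal RNA. That fit takes both arrays of a culture as independent, although they deviated together (correlation 0.417). The number of cultures limits precision.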

Additional observations from a re-analysis of the deposited data

Results flagged for a closer look

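For 6 of the 10 enzymes the sucrose change differed between light and darkness, by a test of the difference itself. In total RNA the light minus dark differences were 3.60 for LDOX (adjusted p = 0.0039), 3.51 for DFR (0.0026), 2.86 for 5GT (0.022), 2.25 for TT19 (0.031), 2.09 for UF3GT (0.047) and 1.67 for CHI (0.0030), with limma and 3 cultures per group, where 4.09% of all features were called in this direction. In polysomal RNA they were 4.44 for DFR (adjusted p = 2.8e-04), 4.12 for LDOX (0.0011), 2.97 for TT19 (0.0043), 2.93 for 5GT (0.016), 2.52 for UF3GT (0.014) and 1.92 for CHI (8.1e-04), against 6.33% of all features. The differences were positive in 3 of 3 replicate numbers for each of these 12 values, and without replicate 7 none of the 12 was called.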

How the results depend on the processing

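The 14 comparisons, 10 genes and 9 alternatives other than the fold requirement give 1260 values. In 464 of them the change was called as reported or under the alternative: 404 kept the call, 37 lost it and 23 gained one, and 0 changed direction. Of 796 values not called in either setting, 25 had the other sign. Leaving out 1 replicate gave these counts of called genes: sucrose in light, 7 to 9 in total and 7 to 9 in polysomal RNA; sucrose in darkness, 0 to 3 and 0 to 4; dark against light sucrose, 6 to 8 and 7 to 8; light minus dark difference, 0 to 8 and 0 to 6; polysomal minus total RNA, 1 to 2. Of all features, both directions together, these fits called 7.22 to 9.43% and 7.86 to 10.3% for sucrose in light. For sucrose in darkness they called 10.2 to 11.9% and 9.72 to 11.7%. For dark against light sucrose they called 7.18 to 8.1% and 7.82 to 8.29%. For polysomal minus total RNA they called 31.3 to 48.8%. Sucrose in darkness gave 0 calls among the 10 genes in total RNA without replicate 7 and without replicate 8, and 3 without replicate 9. The cause was not tested. With the replicate number as a block, the counts were 2 in total and 4 in polysomal RNA for sucrose in darkness, 9 and 9 for dark against light sucrose, 8 and 7 for the light minus dark difference, and 2 for polysomal minus total RNA. In the same order, the block called 11.3% and 11.2%, 8.24% and 8.62%, 14.7% and 17.8%, and 56.7% of all features, both directions together. It removed no call. In the comparison of dark with light sucrose in total RNA, the calls gained with the block were CHS (adjusted p = 0.0015) and F3H (2.0e-05). With the culture as a random block (correlation 0.417), polysomal minus total RNA had 2 calls, against 62.9% of all features, and with a 2-fold requirement 0. In the fit to the occupancies of the cultures, chosen after the data were seen, it had 9 calls, against 62.8% of all features; the cause was not tested. Quantile normalization left 1 call for sucrose in darkness in polysomal RNA, against 10.7% of all features. Over all features, the share called for the light minus dark difference ranged from 1.1 to 14.7% in total and 1.48 to 17.8% in polysomal RNA across the alternatives, both directions together. With 3 cultures per group, differences such as that of CHS in darkness, with a 95% interval of -0.33 to 3.30, could not be resolved, and values of DFR and LDOX near the lower quartile of arrays limit how large a change can be read.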
